A study of Homo sapiens with 4 samples.

Results

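The vascular endothelial growth factor (VEGF) family was examined through 9 genes, chosen by symbol: the receptors KDR, FLT1 and FLT4, the neuropilin co-receptors NRP1 and NRP2, and the ligands VEGFA, VEGFB, VEGFC and PGF. Each symbol had 1 row among the 58365 rows of the deposited table. RNA-seq had been run at day 8 of a stepwise hematopoietic differentiation of H1, a widely used line of human embryonic stem cells. Both groups received activin A (40 ng/ml) and BMP4 (50 ng/ml) for 2 days, then VEGF (40 ng/ml) and bFGF (50 ng/ml) for 3 days. For the last 3 days both stayed in VEGF and bFGF, and SB431542 (SB), an inhibitor of the type I receptors of TGFβ, was present in the SB group. The DMSO group, named for the solvent, lacked SB431542. Each group held 2 libraries, and the study speaks of independent experiments in general without saying that these libraries came from separate cultures, so that p-values measure only the spread between these libraries, which may be technical. The study describes collecting CD31+ cells, a step that the sample labels do not mention, and all cells stem from 1 line.

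VEGFA acts mainly through KDR (VEGFR2), the chief signaling receptor of endothelium and an early mark of mesoderm that gives rise to blood and vessels. FLT1 (VEGFR1) binds VEGFA, VEGFB and PGF tightly and signals weakly, and its soluble form traps ligand, whereas FLT4 (VEGFR3) is the receptor of VEGFC and leads lymphatic growth. Neuropilins hold VEGF ligands and class 3 semaphorins at the cell surface, NRP1 being typical of arteries and NRP2 of veins and lymphatic vessels.

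The 3 receptors and NRP1 were abundant in both groups, and the 9 genes did not differ in 1 direction between the groups. FLT1, NRP1, VEGFA, VEGFC and PGF were lower in both SB libraries than in either DMSO library, with differences in the mean from -26.7% (NRP1) to -57.3% (PGF) in FPKM, a fragment count scaled by transcript length and library size. NRP2 was higher in both SB libraries, with a mean 1.9 times that of DMSO. KDR, FLT4 and VEGFB overlapped between the groups. These levels come from bulk RNA, in which fewer cells of a type and less RNA per cell cannot be told apart.

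With limma on log2(FPKM + 1), 0 of the 9 genes passed an adjusted p of 0.05, against 0.134% of the 14909 genes tested (4 higher and 16 lower). At an unadjusted p under 0.05 in the same fit, 4 of the 9 were lower (FLT1, NRP1, VEGFA and PGF), against 5.16% of all genes, and 1 was higher (NRP2), against 4.8%. The SB libraries lay wholly below the DMSO libraries for 5 of the 9 and wholly above for 1, whereas these positions held for 16% and 21.5% of all genes tested. The median difference of the 9 genes was -0.55 on the log2(FPKM + 1) scale, beside 0.04 for all genes tested. For 2 libraries a group, the smallest two-sided p of an exact permutation test is 0.333, so that no such test was run.

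Of the variance among libraries, 47.4% lay on a first principal component and 38.7% on a second, and both mixed replicate number with group. On the first, number 1 scored below number 2 (-41.6 and 15.6 in DMSO, -11.9 and 37.9 in SB), and SB above DMSO within each number. On the second, number 1 again scored below number 2 (14.2 and 34.1 in DMSO, -37.9 and -10.4 in SB). Both SB libraries scored below both DMSO libraries there. Because replicate number showed on both components, each gene is also given by its differences within number 1 and within number 2. In a limma fit with the replicate number as a term, 5 of the 9 genes were lower in SB at an adjusted p under 0.05 (FLT1, FLT4, NRP1, VEGFA and PGF), against 4.99% of all genes. NRP2 was the 1 gene that was higher in that fit, against 5.5% of all genes. Across libraries, FPKM summed to between 570844 and 612614, and between 14183 and 14372 genes reached 1 FPKM. The number of fragments behind these values is unknown, so no counting error can be given.

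**Figure D1:**
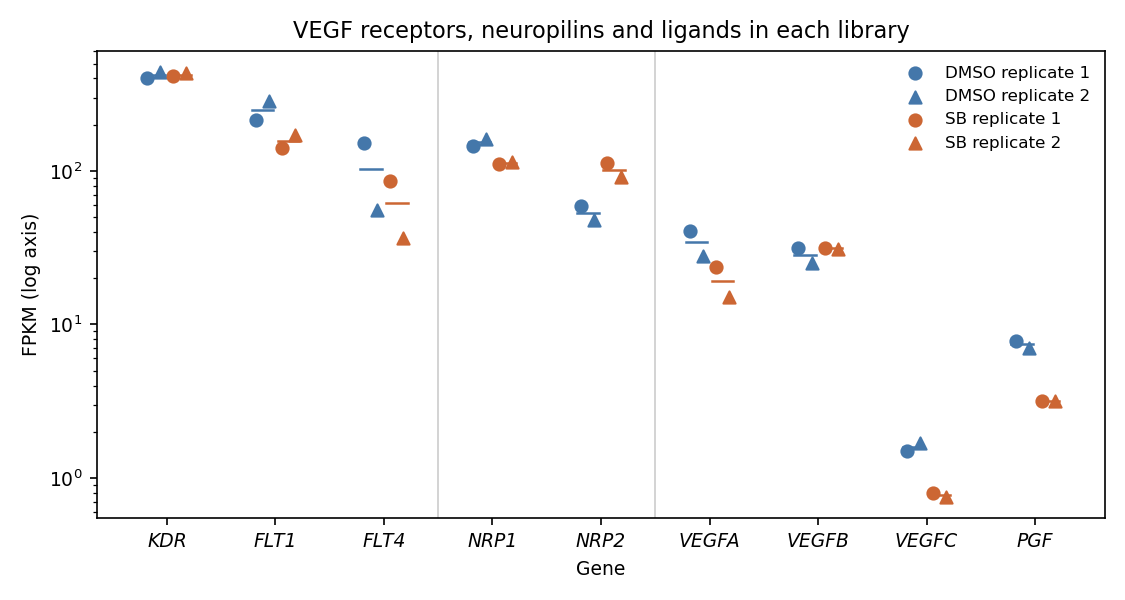
Level of each of the 9 genes in FPKM (log axis) in the 2 DMSO and 2 SB libraries, 1 point per library. KDR stays between 399 and 440 in every library, PGF falls into separate levels of 7.06 to 7.83 in DMSO and 3.17 to 3.18 in SB, and FLT4 is split by replicate number in both groups.

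Among the receptors, KDR had the highest level of the 9 genes with interleaved groups, and FLT1 was lower in SB. KDR (ENSG00000128052.8, chr4:55078477-55125589 on GRCh38, minus strand) stood at 399 and 440 FPKM in DMSO and at 413 and 434 FPKM in SB. These values were interleaved, with means of 420 ± 29 and 423 ± 14.9 FPKM (SD, n = 2 each). The difference was 0.01 on the log2(FPKM + 1) scale, with a 95% interval from -0.39 to 0.41 in the limma fit, so that changes of up to about this size in either direction were not resolved. Within the replicate numbers it was 0.05 and -0.02.

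FLT1 (ENSG00000102755.11, chr13:28300344-28495145, minus strand) stood at 214 and 285 FPKM in DMSO and at 142 and 172 FPKM in SB, so that the groups did not overlap. The mean in SB differed by -37% from that in DMSO, and the log2 difference was -0.66 ± 0.22 (SE), with -0.59 and -0.72 within the replicate numbers. In limma its adjusted p was 0.436 without the replicate number and 0.0111 with it. The row sums all 9 annotated transcripts, so that full-length FLT1 and the soluble, ligand-trapping form are not separated.

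FLT4 (ENSG00000037280.15, chr5:180601506-180649624, minus strand) varied more by replicate number than by treatment. Its level was 151 and 55.3 FPKM in DMSO and 86.3 and 36.5 FPKM in SB, replicate 1 being 2.73 times replicate 2 in DMSO and 2.36 times in SB. Only 90 of the 14909 genes tested (0.604%) differed by at least as much between the numbers, in the same direction, in both groups. SB was lower within each number, by -0.80 and -0.59 on the log2 scale. The pooled difference of -0.69 had a 95% interval from -2.31 to 0.93, and it turned to 0.02 without DMSO replicate 1. In limma its adjusted p was 0.831 without the replicate number and 0.0164 with it.

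The neuropilins differed in opposite directions, NRP1 being lower and NRP2 higher in SB. NRP1 (ENSG00000099250.17, chr10:33177492-33336262, minus strand) stood at 145 and 161 FPKM in DMSO and at 110 and 114 FPKM in SB. The SB values lay below both DMSO values, by -0.44 ± 0.16 (SE) on the log2 scale, with -0.39 and -0.49 within the numbers. In limma its adjusted p was 0.465 without the replicate number and 0.0229 with it.

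NRP2 (ENSG00000118257.16, chr2:205681990-205798133, plus strand) stood at 58.9 and 47.7 FPKM in DMSO and at 112 and 90.6 FPKM in SB. Both SB values lay well above the DMSO values, and the log2 difference was 0.92 ± 0.20 (SE), with 0.92 and 0.91 within the numbers. In limma its adjusted p was 0.253 without the replicate number and 0.00663 with it. Both neuropilins together summed to 204 and 209 FPKM in DMSO and to 223 and 205 FPKM in SB, while the share held by NRP2 went from 28.9% and 22.9% to 50.5% and 44.2%. Genes on the opposite strand that overlap NRP1 and NRP2 (AL121748.2 and AC007362.1) reached at most 0.884 and 1.11 FPKM.

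**Figure D2:**
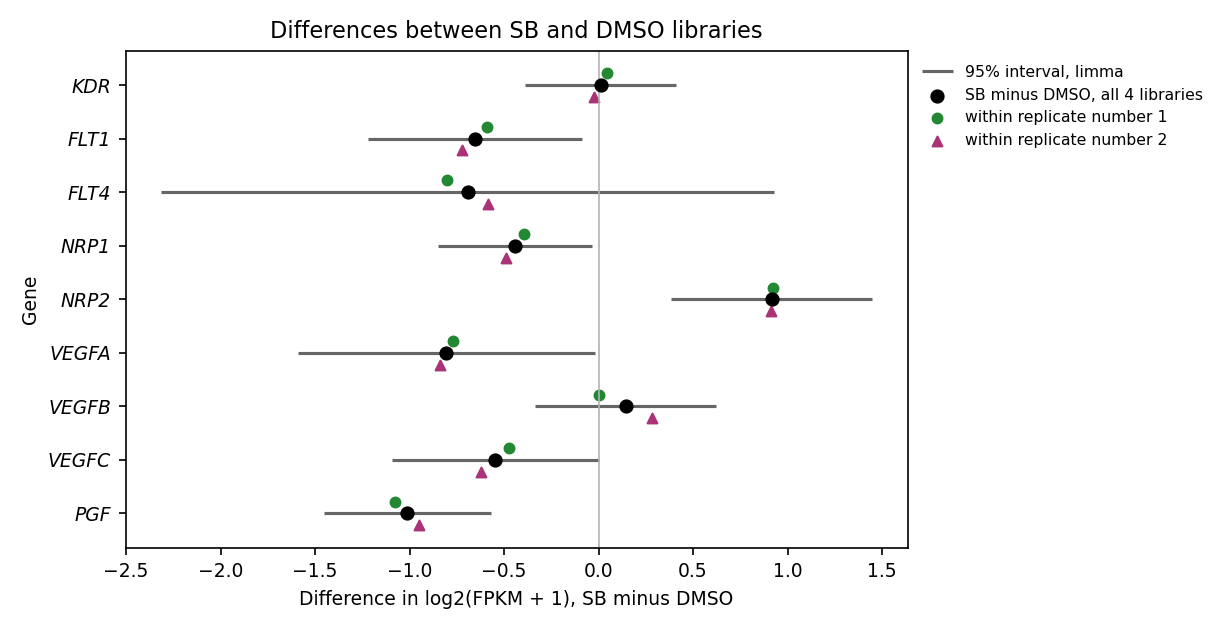
Difference between SB and DMSO on the log2(FPKM + 1) scale for each of the 9 genes, with the limma estimate and its 95% interval and the difference within replicate numbers 1 and 2 as points. The estimate of NRP2 is 0.92 and that of PGF is -1.01, and FLT4 has the widest interval, from -2.31 to 0.93.

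Of the ligands, VEGFA, VEGFC and PGF were lower in both SB libraries, and VEGFB overlapped. VEGFA (ENSG00000112715.21, chr6:43770184-43786487, plus strand), the main ligand of KDR, stood at 40.7 and 27.8 FPKM in DMSO and at 23.5 and 15.1 FPKM in SB. The groups did not overlap, replicate 2 of DMSO lying next to replicate 1 of SB. The log2 difference was -0.81 ± 0.30 (SE), with -0.77 and -0.84 within the numbers, and limma gave an adjusted p of 0.488 without the replicate number and 0.0121 with it. A gene that overlaps its exons on the opposite strand, AL136131.3, was listed at 32.7 FPKM in SB replicate 1 and at 0 in the other 3 libraries. These values of VEGFA are the transcripts of the cells and not the VEGF protein added to the medium of both groups.

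PGF (placental growth factor, a ligand of FLT1, ENSG00000119630.13, chr14:74941834-74955784, minus strand) stood at 7.83 and 7.06 FPKM in DMSO and at 3.18 and 3.17 FPKM in SB. The SB values were far below both DMSO values and close to each other. Its difference was -1.01 ± 0.17 (SE) on the log2(FPKM + 1) scale, the largest in size of the 9 genes, with -1.08 and -0.95 within the numbers. In limma its adjusted p was 0.167 without the replicate number and 0.0167 with it.

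VEGFB (ENSG00000173511.9, chr11:64234538-64238793, plus strand), another ligand of FLT1, stood at 31.6 and 25.2 FPKM in DMSO and at 31.7 and 30.9 FPKM in SB. Its difference was 0.14 with a 95% interval from -0.33 to 0.62, and within the numbers it was 0.00 and 0.28. Without DMSO replicate 2 the sign turned, at -0.01.

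VEGFC (ENSG00000150630.3, chr4:176683538-176792727, minus strand), the ligand of FLT4, was the scarcest of the 9. It stood at 1.5 and 1.7 FPKM in DMSO and at 0.8 and 0.757 FPKM in SB, both SB values lying below 1 FPKM. The difference of -0.55 ± 0.21 (SE) on the log2(FPKM + 1) scale understates that of the plain means, which was -51.3%. In limma its unadjusted p was 0.0501, and its adjusted p was 0.501 without the replicate number and 0.158 with it.

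FPKM is scaled by transcript length, so the 9 genes can be ranked. In DMSO the order was KDR, FLT1, NRP1, FLT4, NRP2, VEGFA, VEGFB, PGF and VEGFC. The libraries of NRP1 and FLT4, of FLT4 and NRP2, and of VEGFA and VEGFB overlapped there between libraries. Within both DMSO libraries, however, FLT4 was above NRP2 and VEGFA above VEGFB, so that only NRP1 and FLT4 exchanged places from one library to the other. In SB the order was KDR, FLT1, NRP1, NRP2, FLT4, VEGFB, VEGFA, PGF and VEGFC, and only NRP1 and NRP2 overlapped, exchanging places between the libraries. The receptors together came to 764 and 780 FPKM in DMSO and to 641 and 642 FPKM in SB, with KDR making up 52.3% and 56.4% of this sum in DMSO and 64.4% and 67.5% in SB. The 4 ligands came to 81.6 and 61.8 FPKM in DMSO and to 59.1 and 49.9 FPKM in SB. VEGFA held 49.9% and 45% of the ligand sum in DMSO and 39.7% and 30.2% in SB, while VEGFB held 38.7% and 40.8% in DMSO and 53.5% and 61.9% in SB.

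Ratios within a library do not depend on how the libraries are scaled to each other. The ratio of KDR to FLT1 was 1.87 and 1.55 in DMSO and 2.91 and 2.52 in SB, a log2 difference of 0.67 (0.64 and 0.70 within the numbers). The ratio of NRP2 to NRP1 was 0.406 and 0.296 in DMSO and 1.02 and 0.793 in SB, a log2 difference of 1.38 (1.33 and 1.42 within the numbers). The groups did not overlap in these ratios, and they overlapped in the other 3, which were lower in SB within both replicate numbers. FLT4 to KDR was 0.378 and 0.126 in DMSO and 0.209 and 0.0842 in SB, with log2 differences of -0.85 and -0.58 within the numbers. PGF to VEGFA was 0.192 and 0.254 in DMSO and 0.136 and 0.21 in SB, with -0.51 and -0.27 within the numbers. VEGFC to VEGFA was 0.0368 and 0.0611 in DMSO and 0.0341 and 0.0501 in SB, with -0.11 and -0.29 within the numbers. With 2 libraries a group, these ratios are given without a test.

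**Figure D3:**
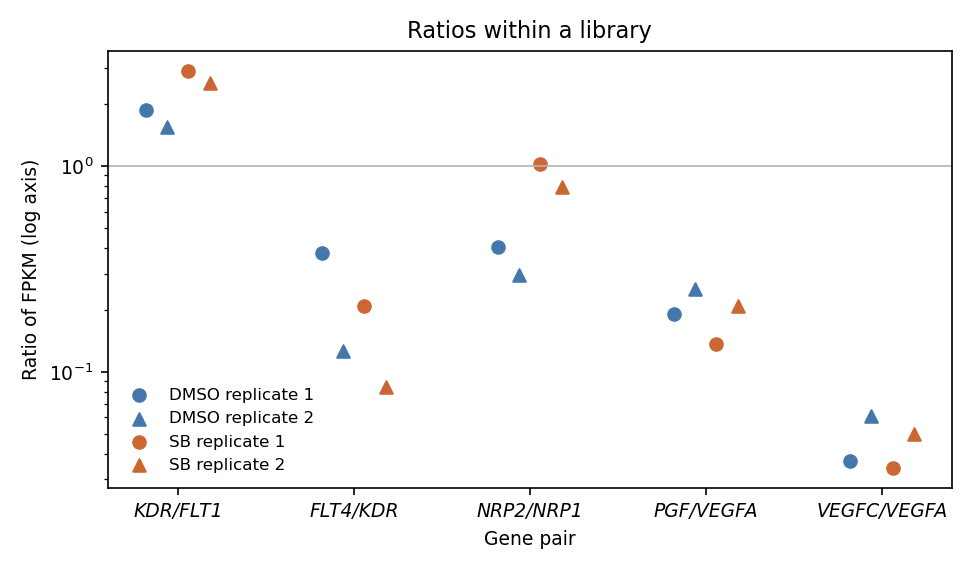
Ratio of FPKM between family members within each library (log axis), 1 point per library, for DMSO and SB. The ratios KDR/FLT1 and NRP2/NRP1 have separate ranges in the groups, up to 1.87 against 2.52 and above, and up to 0.406 against 0.793 and above, and the other 3 ratios overlap.

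Start regions of the genes that carry these contrasts are shown from RefSeq on GRCh38.p14, from 250 bases before to 50 bases after a transcript start, because SB blocks a pathway that ends in SMAD factors. Such windows were found for 6 of the 9 genes (KDR, FLT1, NRP2, VEGFB, VEGFC and PGF). They are written 5′ to 3′ on the strand of the gene. Capitals mark CAGAC, a sequence that SMAD factors can bind, and ACGTG or GCGTG, the core of the hypoxia response element, on either strand. No other SMAD sequence was searched for, so a window without CAGAC may still hold one. In the 35116 promoters of this length, CAGAC was found in 45.3% and the hypoxia core in 48.4%. The windows are chr4:55125546-55125845 (KDR, minus), chr13:28495079-28495378 (FLT1, minus), chr2:205682251-205682550 (NRP2, plus) and chr14:74955715-74956014 (PGF, minus, the more upstream of its 2 windows).
KDR: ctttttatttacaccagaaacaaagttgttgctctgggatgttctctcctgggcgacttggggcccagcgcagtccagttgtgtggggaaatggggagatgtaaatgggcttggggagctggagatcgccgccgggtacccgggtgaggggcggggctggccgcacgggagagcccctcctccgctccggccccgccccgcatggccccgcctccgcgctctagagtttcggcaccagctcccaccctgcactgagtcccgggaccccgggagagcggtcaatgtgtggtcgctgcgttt
FLT1: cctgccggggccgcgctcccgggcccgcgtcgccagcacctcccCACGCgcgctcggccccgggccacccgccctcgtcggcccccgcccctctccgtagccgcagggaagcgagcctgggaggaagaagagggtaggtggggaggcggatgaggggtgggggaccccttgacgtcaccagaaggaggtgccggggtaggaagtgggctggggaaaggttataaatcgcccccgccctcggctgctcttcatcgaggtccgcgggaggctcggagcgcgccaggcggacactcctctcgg
NRP2: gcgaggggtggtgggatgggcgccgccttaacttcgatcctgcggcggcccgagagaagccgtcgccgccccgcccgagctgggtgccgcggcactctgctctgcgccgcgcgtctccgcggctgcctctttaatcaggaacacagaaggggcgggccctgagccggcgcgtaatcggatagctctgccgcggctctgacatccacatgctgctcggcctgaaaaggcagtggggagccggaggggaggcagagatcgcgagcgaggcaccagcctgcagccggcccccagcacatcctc
PGF: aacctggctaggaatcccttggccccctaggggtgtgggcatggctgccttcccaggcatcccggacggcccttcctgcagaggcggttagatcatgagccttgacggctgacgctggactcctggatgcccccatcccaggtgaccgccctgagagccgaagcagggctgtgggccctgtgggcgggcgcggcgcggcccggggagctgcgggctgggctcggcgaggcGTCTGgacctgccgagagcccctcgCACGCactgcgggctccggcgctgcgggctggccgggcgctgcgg
Of these 4 windows, that of PGF held CAGAC, once, and those of FLT1 and PGF held the hypoxia core, once each. The second PGF window, which overlaps the first, held CAGAC 3 times and the hypoxia core once. Of the windows not shown, VEGFB, whose groups overlapped, held CAGAC once and the hypoxia core once, and VEGFC, which was lower in SB, held the hypoxia core once and no CAGAC. GGAA, the core of ETS factors that is held by 95.5% of the promoters, was found 4 times in FLT1, 3 times in PGF and once each in KDR and NRP2, on both strands together. A match describes these letters only and is not a binding site, and no binding was measured here.

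The wider pathway was followed in 7 lists, whose 116 genes include 106 that were tested. None of the 106 passed an adjusted p of 0.05 in limma, the smallest being 0.0697, whereas 7 were higher (6.6%, against 4.8% of all genes) and 12 lower (11.3%, against 5.16%) at an unadjusted p under 0.05. The SB libraries lay wholly above those of DMSO for 24 (22.6%, against 21.5% of all genes) and wholly below for 23 (21.7%, against 16%), and the median log2 difference was 0.02. The genes are therefore given with their values, and those of the list at the smallest p are named. For the counts of each list below, the shares of all genes at an unadjusted p under 0.05 in limma remain 4.8% higher and 5.16% lower.

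Semaphorins and plexins, which share the neuropilins with VEGF, had a median log2 difference of -0.56 over 8 tested of 12 genes, of which 3 were lower at an unadjusted p under 0.05 and 0 higher. The neuropilin ligand SEMA3G stood at 74.8 and 63.5 FPKM in DMSO and at 52 and 43.6 FPKM in SB. The plexin PLXNA1, a signaling partner of the neuropilins, stood at 16 and 11.7 FPKM in DMSO and at 8.27 and 6.7 FPKM in SB. SEMA3C, SEMA3D, SEMA3E and PLXNA4 were below the level needed for the test.

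Proteins that act beside the receptors or process their ligands made up the next lists. Of 11 receptor partners, all tested, 0 reached an unadjusted p under 0.05, and their median was -0.04. The junction protein CDH5 (VE-cadherin), which binds KDR, stood at 273 and 246 FPKM in DMSO and at 224 and 202 FPKM in SB. PTPRJ, a phosphatase that acts on KDR, stood at 2 and 1.78 FPKM in DMSO and at 2.35 and 3.15 FPKM in SB. In the list of VEGFD and the proteins that process VEGFC and VEGFD, 4 of 6 genes were tested, 0 reached an unadjusted p under 0.05 and the median was -0.18. The proprotein convertase FURIN stood at 198 and 121 FPKM in DMSO and at 161 and 103 FPKM in SB, and its relative PCSK5 at 1.46 and 1.63 FPKM in DMSO and 1.25 and 0.973 FPKM in SB. VEGFD itself was at most 0.132 FPKM in any library.

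Signaling downstream of the receptors was represented by 37 genes, all tested, with a median of 0.06. At an unadjusted p under 0.05, 2 were higher (5.41%, near the 4.8% of all genes) and 0 lower. Named for their p alone, these were the protein kinases C PRKCB, at 10.3 and 9.68 FPKM in DMSO and 14.8 and 15.8 FPKM in SB, and PRKCA, at 1.72 and 1.9 FPKM in DMSO and 2.9 and 3.09 FPKM in SB. NFATC2, a calcium-controlled transcription factor, came next, at 2.18 and 1.4 FPKM in DMSO and 3.46 and 2.63 FPKM in SB.

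Of the genes that VEGF is known to induce, 15 of 18 were tested, 1 was higher and 3 lower at an unadjusted p under 0.05, and the median was 0.04. Of the 3 genes with the smallest p, UNC5B, a guidance receptor of sprouting vessels, stood at 208 and 141 FPKM in DMSO and at 72.2 and 50.8 FPKM in SB, and DLL4, a Notch ligand of sprouting vessels, at 251 and 199 FPKM in DMSO and 148 and 130 FPKM in SB. Their log2 differences were -1.49 and -0.69, with adjusted p of 0.205 and 0.349 in limma. HLX, a homeobox factor, went the other way, from 5.74 and 3.72 FPKM in DMSO to 11 and 7.69 FPKM in SB. ANGPT2 and ESM1, also active in sprouting vessels and named after their values were seen, were not lower. ANGPT2 averaged 4.75 FPKM in DMSO and 6.77 FPKM in SB without overlap, and ESM1 averaged 1.16 and 1.36 FPKM with overlap. APLN, another gene of the list named after its values were seen, was lower. It averaged 1.3 FPKM in DMSO and 0.6 FPKM in SB without overlap.

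The hypoxia axis, which controls VEGFA and FLT1 in many cells, did not move one way. Of its 15 genes 14 were tested, 2 were higher and 2 lower at an unadjusted p under 0.05, and the median was 0.10. The hypoxia-induced peptide hormone ADM stood at 6.54 and 6.11 FPKM in DMSO and at 12.4 and 9.29 FPKM in SB. EGLN3, a prolyl hydroxylase of the HIF factors, stood at 2.44 and 2.65 FPKM in DMSO and at 3.9 and 4.56 FPKM in SB. EPAS1 (HIF2α), the hypoxia factor prominent in endothelium, stood at 37.9 and 27.8 FPKM in DMSO and at 21.6 and 18.7 FPKM in SB.

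Transcription factors that regulate these receptor genes were all tested (17 genes, median 0.04), and 2 were higher and 4 lower at an unadjusted p under 0.05. HEY2, the Notch target of arterial endothelium, stood at 21.2 and 22.2 FPKM in DMSO and at 6.07 and 6.17 FPKM in SB, with a log2 difference of -1.67 and an adjusted p of 0.0697 in limma. FOXC2, a factor of vessel and lymphatic valve formation, stood at 6.08 and 4.06 FPKM in DMSO and at 0.904 and 0.474 FPKM in SB. SOX7, an endothelial SOX factor, stood at 161 and 160 FPKM in DMSO and at 111 and 103 FPKM in SB.

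**Figure D4:**
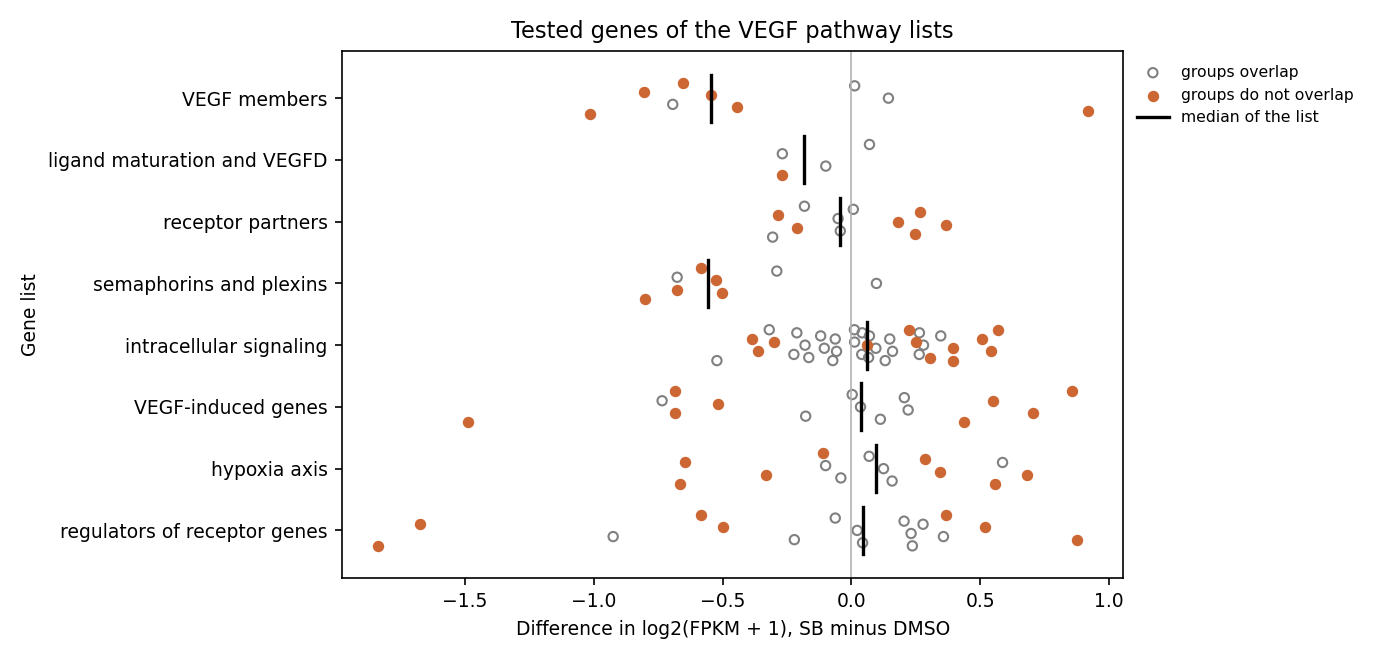
Log2(FPKM + 1) difference between SB and DMSO for each tested gene of the 9 family genes and the 7 pathway lists, 1 point per gene (filled where the groups do not overlap), with the median of each list as a bar. Medians lie at -0.55 for the 9 genes, -0.56 for semaphorins and plexins and between -0.18 and 0.10 for the other 6 lists.

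Genes that respond to TGFβ served as a check of the inhibitor. All 8 were tested, and the median was -1.78. At an unadjusted p under 0.05 in limma, 6 were lower and 0 higher, against 5.16% and 4.8% of all genes. TGFBI, which encodes a matrix protein named for its induction by TGFβ, fell from 29.7 and 31 FPKM in DMSO to 4.1 and 4.93 FPKM in SB (limma adjusted p = 0.0365). CTGF stood at 4.99 and 6.03 FPKM in DMSO and at 0.594 and 0.543 FPKM in SB.

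Markers of other cells were read beside these values. Of all genes tested, 4.8% were higher and 5.16% lower at an unadjusted p under 0.05 in limma. Endothelial markers were high in both groups, their 10 genes summing to 2078 and 1625 FPKM in DMSO and to 2037 and 1648 FPKM in SB, with 1 higher and 1 lower at an unadjusted p under 0.05. These were the tight-junction gene CLDN5 (means of 100 and 204 FPKM in DMSO and SB) and the guidance receptor ROBO4 (11.9 and 5.05 FPKM). PECAM1, the gene of CD31, was at 197 and 163 FPKM in DMSO and at 182 and 153 FPKM in SB. The endothelial sums, PECAM1 and FLT4 were all higher in replicate 1 than in replicate 2 of each group. Not all endothelial genes followed, and KDR, FLT1, NRP1 and the marker TEK were lower in replicate 1 of each group. TEK stood at 60.4 and 77.8 FPKM in DMSO and at 60.3 and 70.3 FPKM in SB. Of the regulators of receptor genes, SOX17 and SOX18 were split in the direction of FLT4. SOX17 stood at 53.3 and 17.5 FPKM in DMSO and at 49.3 and 17.3 FPKM in SB. SOX18 stood at 303 and 110 FPKM in DMSO and at 145 and 63.4 FPKM in SB. SOX7 was not split to this extent. The source of the split of FLT4 was not tested. The log2 values of each library were also set against the mean of its 10 endothelial markers, a scaling chosen after seeing the data. NRP2 then differed by 0.997 and the median of the 9 genes was -0.47. Under this scaling FLT1 and NRP1 no longer reached an unadjusted p under 0.05 in limma (0.0943 and 0.147), while NRP2, VEGFA and PGF did.

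Markers of mesenchymal, endoderm and liver, cardiac and epithelial cells were lower in SB by their sums. The counts below stand against 5.16% of all genes that were lower at an unadjusted p under 0.05 in limma. Mesenchymal markers summed to 306 and 262 FPKM in DMSO and to 119 and 115 FPKM in SB, with 6 of 7 tested lower at an unadjusted p under 0.05, among them the collagen gene COL1A1 (means of 93 and 16 FPKM) and TAGLN (17.6 and 4.73 FPKM). Endoderm and liver markers summed to 158 and 172 FPKM in DMSO and to 13.1 and 12.5 FPKM in SB, with 5 of 5 lower, among them the apolipoprotein gene APOA1 (means of 60.3 and 3.35 FPKM) and the fetal liver gene AFP (48.9 and 3.25 FPKM). Cardiac markers went from 57.6 and 36.1 FPKM to 11.4 and 6.52 FPKM, with 3 of 3 lower, among them ACTC1 (means of 10.8 and 0.598 FPKM) and NKX2-5 (33.6 and 7.82 FPKM). Epithelial markers went from 240 and 236 FPKM to 111 and 117 FPKM, with 5 of 5 lower, among them the keratin genes KRT19 (means of 42.3 and 9.38 FPKM) and KRT8 (107 and 47 FPKM). Of these 20 tested genes, 3 endoderm genes and 1 cardiac gene passed an adjusted p of 0.05 in limma, among them APOA1, AFP and ACTC1. The share over all genes tested was 0.134%. No listed marker was at 0 in all libraries, and the part of these cells in the differences of FLT1, NRP1, VEGFA, VEGFC and PGF was not tested.

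Hematopoietic markers summed to 961 and 1015 FPKM in DMSO and to 1106 and 1258 FPKM in SB. At an unadjusted p under 0.05 in limma, 5 of 9 tested were higher and 1 lower, against 4.8% and 5.16% of all genes. Platelet factor 4 (PF4) averaged 41.2 FPKM in DMSO and 260 FPKM in SB, and CD33, a myeloid marker, 2.83 and 7.35 FPKM. Of 3 lymphatic markers, which relate to the venous and lymphatic setting of NRP2 and FLT4, LYVE1 averaged 0.593 FPKM in DMSO and 4.11 FPKM in SB, while PROX1 averaged 1.13 and 1.56 FPKM and PDPN, named to complete the list, 1.01 and 0.775 FPKM, both overlapping between the groups. The part of blood and lymphatic cells in the difference of NRP2 was not tested. Trophoblast, a known source of PGF, was marked by 8 genes, of which only GATA3 (means of 41.7 and 39.8 FPKM) and TFAP2A (3.71 and 3.67 FPKM) were high enough to test and neither reached an unadjusted p under 0.05. The placental hormone and steroid genes CGA and HSD3B1 were at most 0.141 and 0.148 FPKM in any library. Of 4 pluripotency markers 2 were tested, and both were higher. LIN28A averaged 46.8 FPKM in DMSO and 70.6 FPKM in SB. POU5F1 averaged 0.458 and 1.42 FPKM. It reached the mean of 1 FPKM needed for the test only in SB, so its count as higher carries no weight. NANOG and SOX2, too low to test, were at most 0.0261 and 0.121 FPKM in any library.

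The genes most like NRP2 and PGF in their pattern over the 4 libraries were found by Euclidean distance between centred log2(FPKM + 1) values. Nearest to NRP2 were SLC7A8 (distance 0.0393), SIGLEC10 (0.0589) and PTPN7 (0.0683). SLC7A8, an amino acid transporter gene, stood at 9.95 and 8.15 FPKM in DMSO and at 19.7 and 16.1 FPKM in SB. Nearest to PGF were AL391069.2 (distance 0.0342), IGSF1 (0.0454) and PPP1R32 (0.057), the last at 7.83 and 7.12 FPKM in DMSO and 3.34 and 3.38 FPKM in SB. These distances rest on 4 libraries and are given as a description.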

How the data were processed

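RNA-seq values of 4 libraries, 2 DMSO and 2 SB, were used; titles gave the groups. The authors deposited FPKM per gene, 1 column per library; the submitters' notes name BWA, Bowtie, RSEM and hg19, without versions or roles. Of the versioned identifiers, 95.5% matched GENCODE 29 (GRCh38), and 99.8% of the matched ones lay at the same position when the deposited starts are counted from 0. Coordinates are therefore given on GRCh38, counted from 1; KDR carries an older identifier version, and its position is the deposited one. Strand use in counting is not given in the sources used here, so overlapping genes are uncertain.

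FPKM were transformed to log2(FPKM + 1), and genes with a mean of at least 1 FPKM in at least 1 group were tested. The test was that of limma 3.58.1 under R 4.3.3 (trend, group as the only term, all 4 libraries), with Benjamini-Hochberg adjustment over all genes tested and a threshold of 0.05. The study names Student's test for comparisons between groups in general, and it was not used here. The fit was tested on simulated data. Other steps were run in Python 3.11.15. The pseudocount of 1 understates changes of low genes.

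The members and lists were chosen with earlier results of these data known. All 9 family genes are named; of each other list the 2 genes with the smallest unadjusted p (3 in lists of over 12 genes), the 3 nearest patterns to the largest rise and the largest fall, and PECAM1. VEGFD, ANGPT2, ESM1, APLN, TEK, PDPN and the genes given as too low to test were named after their values were seen. Other settings tried were a block for the replicate number, all rows kept, only rows reaching 5 FPKM in 2 or more libraries, a pseudocount of 0.1, quantile normalization, upper-quartile scaling, scaling on endothelial markers (chosen after seeing the data) and the removal of each library. Lists are described by counts and medians only.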

Additional observations from a re-analysis of the deposited data

How the results depend on the processing

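The labels number the libraries 1 and 2 in each group without stating a shared culture or day, and with 2 pairs the numbers do not establish pairing. The difference between replicates 1 and 2 correlated between the groups across genes (r = 0.528; genes are not independent replicates). With the number as a replicate block, 1564 genes were called in place of 20, 6 of the 9 family genes in place of 0, and 21 of the 106 tested genes of the pathway lists (19.8%, against 10.5% of all genes) in place of 0. The 6 were FLT1 (-0.66), FLT4 (-0.69), NRP1 (-0.44), NRP2 (0.92), VEGFA (-0.81) and PGF (-1.01), with the same estimates as without the block, and the block changed no other call among the 9.

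In the alternatives other than the block, 0 of the 9 genes were called by limma, with 2 to 5 at an unadjusted p under 0.05 and the lowest adjusted p at 0.147 (pseudocount 0.1). Without a filter 0 genes were called in all, and with quantile normalization 31. KDR turned to -0.0279 under quantile normalization and to -0.0313 under upper-quartile scaling. Removing 1 library gave 0 (without DMSO replicate 1) to 14 (without DMSO replicate 2) genes called, with 10 without SB replicate 1 and 9 without SB replicate 2; a lone library is then assumed to vary like the other group. Over these removals KDR ran from -0.0579 to 0.0827, FLT4 from -1.41 to 0.0226, VEGFB from -0.0142 to 0.301, FLT1 from -0.86 to -0.45, VEGFA from -1.11 to -0.50, VEGFC from -0.60 to -0.49, NRP1 from -0.52 to -0.37, NRP2 from 0.76 to 1.07 and PGF from -1.08 to -0.95. The removals were applied to the ratios after seeing the data: FLT4 to KDR then ran from -1.51 to 0.0786 and turned without DMSO replicate 1, and VEGFC to VEGFA ran from -0.56 to 0.17 and turned without DMSO replicate 2 (0.17) and without SB replicate 1 (0.08). The cause of these turns was not tested. The stricter filter left out VEGFC, and low values of genes such as VEGFC cannot be given a counting error.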
